A study of Caenorhabditis elegans with 12 samples.

Results

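The *dod* genes ("downstream of DAF-16") of *Caenorhabditis elegans* were followed here in messenger RNA of whole animals. The 10 genes *dod-3*, *dod-6*, *dod-17*, *dod-18*, *dod-19*, *dod-20*, *dod-21*, *dod-22*, *dod-23* and *dod-24* were taken by their WormBase symbol, and all 10 were found among the 19997 genes of the deposited tables. The series holds 12 samples in 5 groups. On day 1 of adulthood, 3 samples came from animals with the genotype *daf-2(e1370)* in an *eri-1(mg366)* background, and their labels add control RNAi. The *glp-4(bn2)* animals were sampled on day 1, day 3 and day 7, with 2 samples an age analysed here, where the study's methods speak of triplicates, and without the *eri-1* allele. The 3 samples called wild-type (WT) were *eri-1(mg366)* animals of day 1, so that this allele, which makes animals more sensitive to RNAi, was shared by *daf-2* and WT animals. Adults of all groups lived at 20 °C on plates with FUDR at 50 µM, which keeps them from producing progeny, and at least 80 worms were pooled per sample. The larvae of *daf-2* and WT animals grew at 15 °C, while the study's methods give 25 °C for *glp-4* larvae and the labels give 15 °C for all. Neither source says that samples of a group came from separate cultures, so that p-values measure the spread between these samples, which may be technical.

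Insulin/IGF-like signaling (IIS) starts at the receptor DAF-2 and, through a kinase cascade, keeps the FOXO transcription factor DAF-16 out of the nucleus. The *dod* genes were named from arrays in which transcripts were compared between worms lacking *daf-2* activity and worms lacking *daf-2* and *daf-16* activity. In that naming, *dod-3* and *dod-6* belong to the class that goes up when IIS is reduced, and *dod-17* to *dod-24* belong to the class that goes down. The proteins of *dod-17*, *dod-21*, *dod-22* and *dod-24* carry a CUB-like domain, a fold found in many secreted worm proteins that respond to intestinal infection. The allele *e1370* is a point mutation of the receptor, so the level of the *daf-2* transcript does not test that label. The *bn2* allele of *glp-4* blocks the making of germ cells at the restrictive temperature, so that mostly somatic RNA is left.

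Between 4538353 and 22484551 estimated counts per sample fell on genes, with the smallest totals at day 7. Levels across samples are given as CPM, which scales counts by the sample's total and its TMM factor, and levels of different genes are compared as TPM, which also divides by transcript length. A floor of 3 counts corresponds to between 0.132 and 0.551 CPM and, like the intervals given later, covers counting error alone, because PCR copies of a molecule were not marked. Germline transcripts checked the *glp-4* label: 10 germline markers summed to 50.3 to 65.1 CPM in *glp-4* animals of day 1, against 3193 to 3328 CPM in WT animals, and 6 of 6 sperm markers had at most 3 counts in each *glp-4* day 1 sample. For reduced IIS, *sod-3* (superoxide dismutase) and *mtl-1* (metallothionein), both known DAF-16 targets, were higher in *daf-2* than in WT animals by 3.92 and 6.25 on the log2 scale (adjusted p = 1.4e-08 and 2.0e-08). Here and later, "edgeR adjusted p" stands for the p of the quasi-likelihood test of edgeR, adjusted after Benjamini and Hochberg across every gene tested, and a change was called where it was under 0.05.

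The *dod* genes covered a wide range of abundance. The highest level belonged to *dod-6*, with 2786 and 2872 TPM in *glp-4* animals of day 3, ranks 42 and 43 among the 19997 genes of those samples. Close to it was *dod-19*, with 2492 and 2393 TPM and ranks 51 and 58 at the same age. The scarcest member was *dod-20*, which did not exceed 1.56 TPM in any of the 12 samples. In WT animals the order per length started with *dod-23* (117 ± 3.06 TPM, SD, n = 3) and *dod-19* (115 ± 11.6 TPM), whose samples overlapped, followed by *dod-6* (60.8 ± 8.27 TPM). Below them stood *dod-18* (28.9 ± 1.47 TPM) and *dod-3* (23.4 ± 8.95 TPM), which also overlapped. The 3 CUB-like genes *dod-24*, *dod-22* and *dod-17* lay together between 11.5 and 18.1 TPM in the WT samples, but for *dod-17* in replicate 3, which was slightly lower. At the low end, *dod-21* had 12, 22 and 0 counts and *dod-20* 8, 2 and 9 counts in the WT samples. In *daf-2* animals the order began instead with *dod-3* (299 ± 44.6 TPM, SD, n = 3) and *dod-6* (155 ± 11.6 TPM).

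**Figure D1:**
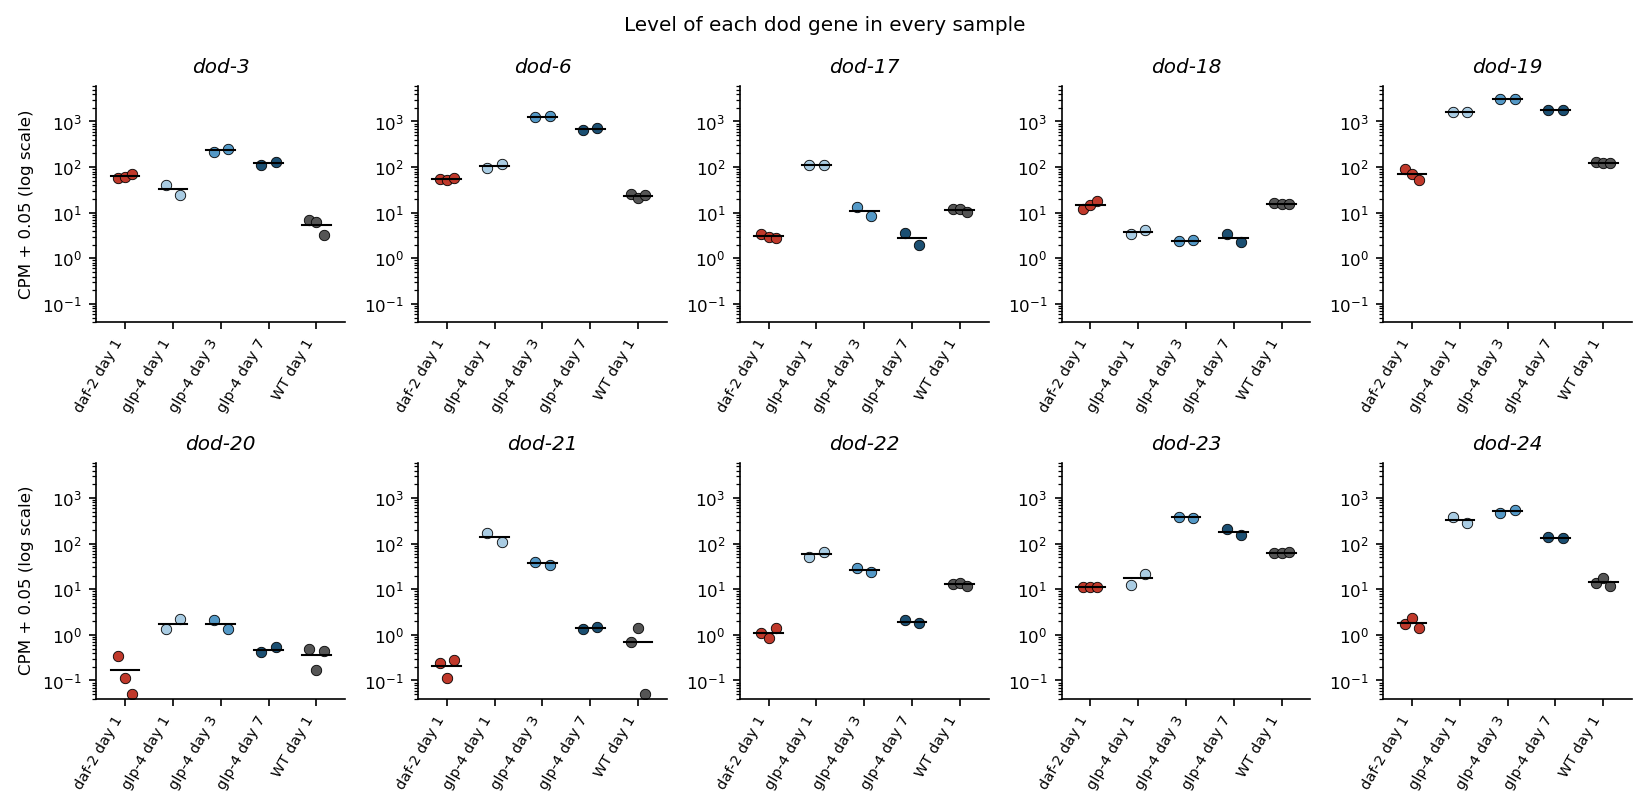
Level of each *dod* gene in the 12 samples, as CPM plus 0.05 on a log axis, with a point per sample and a line at the group mean; groups run from *daf-2* over *glp-4* day 1, 3 and 7 to WT. *dod-19* lies between 1631 and 3157 CPM in the 6 *glp-4* samples, while *dod-21* spans from 0 counts in a WT sample to 168 CPM in a *glp-4* sample of day 1.

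Which *dod* genes differed in animals with reduced IIS was asked by comparing *daf-2* with WT animals on day 1. *dod-3* and *dod-6* were higher in *daf-2* animals, while *dod-22*, *dod-24*, *dod-23*, *dod-17* and *dod-19* were lower. No change of *dod-18* was called, and *dod-20* and *dod-21* were too scarce in these 6 samples to pass the filter on low counts. Thus 2 of the 8 tested members rose and 5 fell. Of all 13528 genes tested, 48.0% were called, 25.5% as higher and 22.5% as lower. The median log2 fold change of the 8 tested members was -1.36, beside 0.0025 for all genes tested. With library totals in place of TMM scaling, 71.8% of all calls were upward, against 53.2% under TMM, and the same number of members, 7, was called.

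Of the genes named for going up, *dod-3* showed the larger difference. It had 57.2, 60.3 and 70.0 CPM in *daf-2* samples, against 6.88, 6.25 and 3.13 CPM in WT samples. Every *daf-2* sample lay above every WT sample, and the WT samples spread more in proportion, with replicate 3 the lowest. The difference was 11.9-fold (log2 fold change 3.58, SE 0.20, edgeR adjusted p = 3.2e-07). The transcript of *dod-6*, which was the more abundant of both per length in WT animals, changed less. Its level was 53.8, 52.2 and 56.6 CPM in *daf-2* samples and 26.1, 20.5 and 24.1 CPM in WT samples, again without overlap, which is a 2.33-fold difference (log2 fold change 1.22, SE 0.084, edgeR adjusted p = 1.3e-06).

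Among the genes named for going down, the largest decrease was that of *dod-22*, a gene of the CUB-like group. It stood at 1.05, 0.815 and 1.35 CPM in *daf-2* samples, against 13.0, 13.8 and 11.5 CPM in WT samples, an 11.5-fold lower level (log2 fold change -3.52, SE 0.18, edgeR adjusted p = 1.7e-07). All *daf-2* samples were below 2 CPM and all WT samples above 11 CPM. Its CUB-like relative *dod-24* was lower as well, with 1.72, 2.26 and 1.35 CPM in *daf-2* samples and 13.4, 17.2 and 11.5 CPM in WT samples (log2 fold change -2.98, SE 0.22, edgeR adjusted p = 1.8e-06). The highest *daf-2* sample was thus far below the lowest WT sample. For *dod-17*, also CUB-like, the values were 3.38, 2.82 and 2.79 CPM in *daf-2* samples and 12.1, 12.2 and 10.3 CPM in WT samples (log2 fold change -1.92, SE 0.14, edgeR adjusted p = 2.1e-06). Whichever of the 6 samples was left out, these 3 genes kept their calls. On the log2(TPM + 1) scale of limma, which compresses low levels, the changes of *dod-22* and *dod-24* were smaller, at -2.70 and -2.36.

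The most even values were those of *dod-23*, with 11.3, 11.3 and 11.3 CPM in *daf-2* samples and 62.6, 62.4 and 65.8 CPM in WT samples. The spread within either group was small beside the gap, which was 5.56-fold (log2 fold change -2.47, SE 0.066, edgeR adjusted p = 9.7e-10). The transcript of *dod-19* fell least among the called genes. It had 89.9, 70.0 and 53.4 CPM in *daf-2* samples and 129.6, 122 and 123 CPM in WT samples (log2 fold change -0.80, SE 0.13, edgeR adjusted p = 4.9e-04). The *daf-2* samples spread widely, but the highest of them stayed below the lowest WT sample. With *dod-18* the groups overlapped, at 11.9, 14.7 and 18.4 CPM in *daf-2* samples and 16.3, 15.8 and 15.3 CPM in WT samples (log2 fold change -0.052, SE 0.15, edgeR adjusted p = 0.794). The *daf-2* samples lay on either side of the WT samples, and the sign of the difference turned under 5 of the alternatives tried.

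Counting error was large for the remaining members. *dod-20* had 6, 1 and 0 counts in *daf-2* samples and 8, 2 and 9 counts in WT samples, a ratio of the summed levels of 0.363 (95% exact interval 0.129 to 0.902). *dod-21* had 4, 1 and 5 counts in *daf-2* samples and 12, 22 and 0 counts in WT samples, a ratio of 0.290 (95% exact interval 0.128 to 0.600). The WT sample without a count of *dod-21*, replicate 3, was the most deeply sequenced of all 12, and the other WT samples were above each *daf-2* sample. In a fit without the filter neither was called (edgeR adjusted p = 0.251 for *dod-20* and 0.128 for *dod-21*). Without WT replicate 3, *dod-21* passed the filter and was called lower (log2 fold change -2.48, SE 0.58, edgeR adjusted p = 0.00803). It also passed the filter without *daf-2* replicate 1, 2 or 3, and was not called in those fits (edgeR adjusted p = 0.211, 0.304 and 0.120). The labels name control RNAi for *daf-2* samples only, so genotype and any difference in food cannot be told apart.

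**Figure D2:**
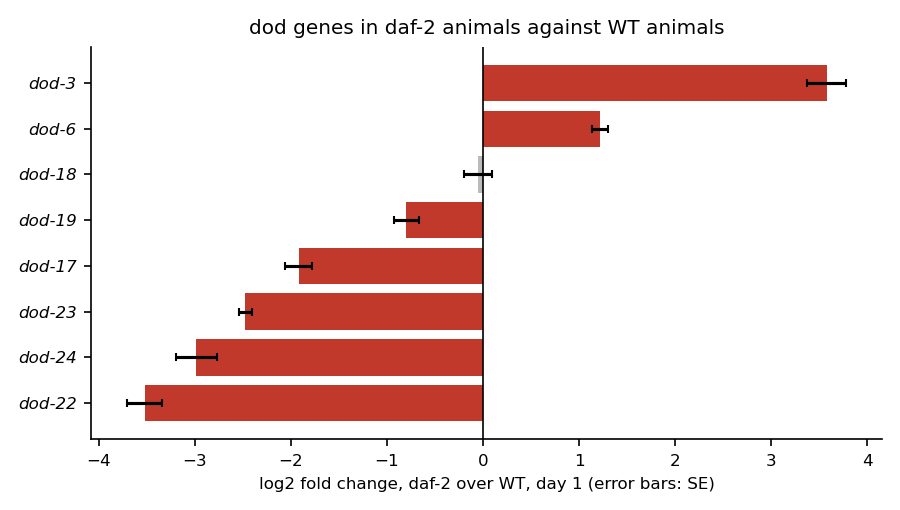
Log2 fold change of the 8 tested *dod* genes in *daf-2* over WT animals on day 1, with bars from 0 and error bars of 1 SE; red bars passed the test and the gray bar of *dod-18* did not. *dod-3* reaches 3.58 and *dod-6* 1.22, while 5 genes lie between -0.80 and -3.52.

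Other genes tied to the pathway were set beside the *dod* genes. Among 24 genes of the IIS pathway and regulators of DAF-16, 9 passed as higher and 5 as lower in *daf-2* animals, with a median log2 fold change of 0.066. The transcripts of *daf-16* itself and of *pqm-1*, which encodes a factor that acts opposite to DAF-16, differed by -0.25 and 0.49 (edgeR adjusted p = 0.00787 and 4.5e-04). The kinase gene *akt-2*, downstream of the receptor, had log2 fold change 1.19, SE 0.092, edgeR adjusted p = 2.8e-06. Of 20 tested genes known to be raised by DAF-16, 17 were higher, 1 was lower and 2 did not pass, with a median of 1.89. The exception was *mtl-2*, a metallothionein gene of the intestine, with log2 fold change -1.40, SE 0.13, edgeR adjusted p = 7.8e-06. The 3.58 of *dod-3* stood close to *sod-3* (3.92) and *djr-1.2* (3.36), and the 1.22 of *dod-6* close to the catalase gene *ctl-1* (1.15).

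All 9 tested genes of a list of genes known to go down with reduced IIS were lower in *daf-2* animals, with a median of -0.76, a smaller decrease than that of each of the 5 *dod* genes that fell. This list holds the vitellogenin (yolk protein) genes, which lay between -0.27 (*vit-2*) and -1.28 (*vit-1*), and the peptide transporter gene *pept-1*, at -3.10. Intestinal immune response genes were divided, with 8 of 18 higher and 5 lower. The lower ones included *C32H11.4* (-3.20), *sysm-1* (-2.14) and *irg-5* (-1.75), and the higher ones *clec-60* (3.45) and *clec-85* (1.28). Of 9 intestinal markers in the tables, 2 were higher and 4 lower, and their summed level was 1299 to 1729 CPM in *daf-2* samples, against 1544 to 1711 CPM in WT samples, with no marker at the floor. Germline markers, 8 of 10 of them lower, summed to 2521 to 2805 CPM in *daf-2* samples, against 3193 to 3328 CPM in WT samples. All 6 sperm markers were higher, with 113 to 123 CPM in *daf-2* samples, against 49.7 to 67.4 CPM in WT samples. The part of these in the changes of the *dod* genes was not tested. In bulk RNA, fewer cells of a type and less RNA per cell cannot be told apart.

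How the *dod* genes change with age in the soma was followed in *glp-4* animals of day 1, day 3 and day 7. Their courses differed. *dod-3*, *dod-6* and *dod-23* rose several-fold by day 3 and were lower again at day 7, yet still above day 1. The CUB-like genes *dod-17*, *dod-21* and *dod-22* fell by day 3 and further by day 7. *dod-24* and *dod-19* were higher at day 3 and lower at day 7 than at day 3, and *dod-18* and *dod-20* were scarce, with no call for *dod-18* at any age.

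At day 3, 5 of the 10 members were higher than at day 1 and 3 were lower, where 54.1% of the 13222 tested genes were called, 26.6% as higher and 27.5% as lower. At day 7, 3 members were higher and 5 lower than at day 1, where 61.9% of genes were called, 30.6% as higher and 31.3% as lower. Between day 7 and day 3, none was higher and 9 were lower, where 32.6% of genes were called, 14.2% as higher and 18.4% as lower. The median log2 fold change of the members was 0.31 at day 3 and -0.84 at day 7 over day 1, and -1.49 at day 7 over day 3, beside 0.0048, 0.021 and 0.0053 for all genes. The comparisons share samples (day 1 in the comparisons at day 3 and day 7), so they are not independent of each other. With library totals the medians of all genes moved to 0.56 at day 7 over day 1 and 0.51 at day 7 over day 3, the upward share of calls moved to 71.6% and 84.4%, against 49.4% and 43.5% under TMM, and the members' counts at day 7 over day 3 became 0 higher and 7 lower. Under limma on log2(TPM + 0.1), 5 were lower.

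*dod-23* had the largest increase. Its level was 12.34 and 21.97 CPM at day 1, 378 and 371 CPM at day 3 and 205 and 151 CPM at day 7. No samples of different ages overlapped, and the day 1 samples differed the most in proportion. At day 3 it was 21.95-fold higher than at day 1 (log2 fold change 4.46, SE 0.21, edgeR adjusted p = 4.3e-10), and at day 7 10.5-fold higher (log2 fold change 3.39, SE 0.21, edgeR adjusted p = 4.3e-09). The decrease at day 7 relative to day 3 was -1.07 on the log2 scale (edgeR adjusted p = 3.6e-04), a call that limma on log2(TPM + 1) did not make (log2 fold change -0.75).

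For *dod-6* the samples held 95.9 and 118 CPM at day 1, 1240.2 and 1293 CPM at day 3 and 657 and 714 CPM at day 7. The ages were well apart, and the 2 samples of each age lay close together. The fold change over day 1 was 12.1 at day 3 (log2 fold change 3.59, SE 0.13, edgeR adjusted p = 2.6e-11) and 6.56 at day 7 (log2 fold change 2.71, SE 0.12, edgeR adjusted p = 2.0e-10). *dod-3* followed the same course at a lower level, with 41.5 and 23.8 CPM at day 1, 215 and 254 CPM at day 3 and 113 and 128 CPM at day 7. It was higher by 2.88 at day 3 (SE 0.19, edgeR adjusted p = 1.8e-08) and by 1.93 at day 7 (SE 0.19, edgeR adjusted p = 8.3e-07) on the log2 scale. Relative to day 3, *dod-6* differed by -0.88 and *dod-3* by -0.95 at day 7 (edgeR adjusted p = 4.5e-05 and 9.6e-04). *dod-3* lost this call with library totals (log2 fold change -0.45, edgeR adjusted p = 0.0772), and limma did not call *dod-3* (log2 fold change -0.64) or, on log2(TPM + 0.1), *dod-6* (log2 fold change -0.56, adjusted p = 0.0614).

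The steepest decline was that of *dod-21*. It had 168 and 110.4 CPM at day 1, 40.4 and 33.5 CPM at day 3 and 1.29 and 1.44 CPM at day 7, the last from 7 and 9 counts. Each age lay below the one before it in both samples. The level at day 7 was 98.0-fold below that at day 1 (log2 fold change -6.62, SE 0.29, edgeR adjusted p = 1.2e-10), and 26.6-fold below that at day 3 (log2 fold change -4.73, SE 0.32, edgeR adjusted p = 6.6e-08). At day 3 the decrease relative to day 1 was still modest (log2 fold change -1.88, SE 0.17).

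*dod-17* had the larger decrease at day 3. Its samples held 109 and 113 CPM at day 1, 13.5 and 8.42 CPM at day 3 and 3.49 and 1.92 CPM at day 7. The decrease was already large at day 3 (log2 fold change -3.30, SE 0.19, edgeR adjusted p = 2.9e-09), and at day 7 the level was 40.6-fold below day 1 (log2 fold change -5.34, SE 0.24, edgeR adjusted p = 1.9e-10). In *dod-22* the decrease on the log2 scale was larger between day 3 and day 7 than between day 1 and day 3. It stood at 51.5 and 65.6 CPM at day 1, 29.0 and 23.9 CPM at day 3 and 2.02 and 1.76 CPM at day 7, which is a log2 fold change of -1.12 at day 3 (SE 0.16, edgeR adjusted p = 2.9e-05) and of -4.92 at day 7 (SE 0.24, edgeR adjusted p = 3.9e-10). The difference in course between *dod-17* and *dod-22* was not itself tested. By day 7, each of these 3 CUB-like genes was under 4 CPM in both samples. These day 7 levels rest on few counts, 19 and 12 for *dod-17* and 11 and 11 for *dod-22*.

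*dod-24*, the remaining CUB-like gene, did not share the early decrease. Its samples had 381 and 289.6 CPM at day 1, 463 and 558 CPM at day 3 and 142 and 130.4 CPM at day 7. The day 3 samples were above and the day 7 samples below those of day 1, with no overlap. The increase at day 3 was small (log2 fold change 0.63, SE 0.13, edgeR adjusted p = 0.00111), and the decrease was -1.27 at day 7 over day 1 (SE 0.14, edgeR adjusted p = 2.1e-06) and -1.90 at day 7 over day 3 (SE 0.14, edgeR adjusted p = 1.8e-07).

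*dod-19* stayed abundant at all ages, with 1639 and 1631 CPM at day 1, 3157 and 3087 CPM at day 3 and 1828 and 1785 CPM at day 7. It was 1.94-fold higher at day 3 than at day 1 (log2 fold change 0.96, SE 0.10, edgeR adjusted p = 1.9e-06). At day 7 it was lower than at day 3 (log2 fold change -0.78, edgeR adjusted p = 4.0e-05) and was not called against day 1 (log2 fold change 0.18, edgeR adjusted p = 0.146), a result that depends on the scaling, since library totals gave a called increase of 0.71. *dod-20* had 11 and 22 counts at day 1, 15 and 9 counts at day 3 and 2 and 3 counts at day 7. The day 7 samples were at or under the floor of 3 counts, and the ratio of day 7 to day 1 was 0.243 (95% exact interval 0.0740 to 0.626). Its calls at day 7 over day 1 (edgeR adjusted p = 0.0224) and over day 3 (edgeR adjusted p = 0.0492) were lost when day 1 replicate 2, day 7 replicate 1 or day 7 replicate 2 (over day 1, adjusted p 0.0981 to 0.181), or any of the 4 samples (over day 3, adjusted p 0.0834 to 0.256), was left out. The call over day 1 was also lost with library totals (log2 fold change -1.43, edgeR adjusted p = 0.0801) and with DESeq2 (adjusted p = 0.134). Of the 12 alternatives in which *dod-20* was tested, 5 kept the call over day 1 and 1 kept the call over day 3. *dod-18* had 3.38 and 4.04 CPM at day 1, 2.33 and 2.47 CPM at day 3 and 3.31 and 2.24 CPM at day 7, from 14 to 41 counts a sample. Its day 1 samples were the highest, and none of its differences passed the test (edgeR adjusted p = 0.198 at day 3 and 0.382 at day 7 over day 1, and 0.754 at day 7 over day 3).

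**Figure D3:**
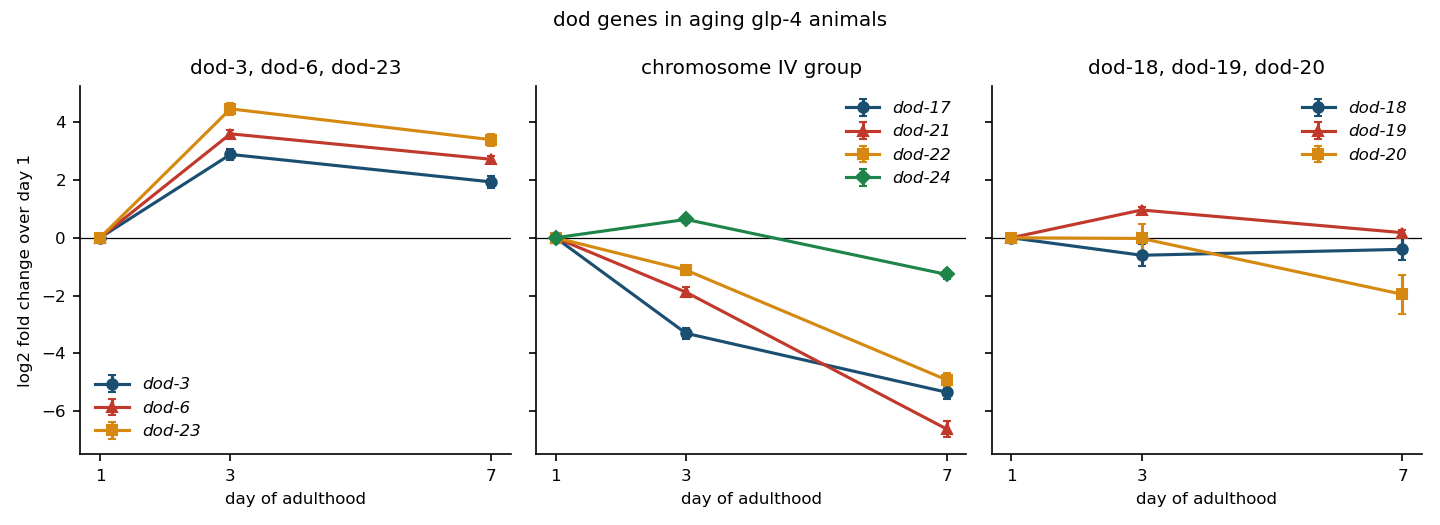
Log2 fold change over day 1 of each *dod* gene in *glp-4* animals at day 3 and day 7 of adulthood (day 1 set to 0), with error bars of 1 SE; the panels hold *dod-3*, *dod-6* and *dod-23*, then the 4 genes of chromosome IV, then *dod-18*, *dod-19* and *dod-20*. The left panel peaks at day 3 with values from 2.88 to 4.46, and in the middle panel *dod-21*, *dod-17* and *dod-22* reach -6.62, -5.34 and -4.92 at day 7.

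Immune response genes of the intestine were mostly higher at day 3 and lower afterwards: 16 of 20 were higher and 2 lower at day 3 over day 1, and 2 were higher and 15 lower at day 7 over day 3. The median of this list was 0.59 at day 3 over day 1 and -1.86 at day 7 over day 3. *sysm-1* (3.14 at day 3 over day 1 and -2.54 at day 7 over day 3) and *C32H11.4* (1.21 and -3.22) changed in the same directions as *dod-24* in those comparisons, while the C-type lectin gene *clec-67* (-2.62 and -3.76) was lower in both, as were *dod-17*, *dod-21* and *dod-22*. Among 20 tested DAF-16 targets of the raised class, 13 were higher and 3 lower at day 3, and 12 higher and 6 lower at day 7, both over day 1. The lysozyme gene *lys-7* (6.86 at day 3 and 6.10 at day 7) and *mtl-1* (5.31 and 4.51) were higher at both ages, as were *dod-3* and *dod-6*. In the list of genes lowered under reduced IIS, 6 of 9 were higher and 3 lower at day 3, and 3 were higher and 5 lower at day 7.

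Markers of cell types moved with age as well. The 9 intestinal markers summed to 14949 to 16047 CPM at day 1. Their sum was 3698 to 4177 CPM at day 3 and 2889 to 3229 CPM at day 7, with none at the floor. Much of it was *asp-1*, with a mean of 11235 CPM at day 1 and 2276 CPM at day 3. At day 3 over day 1, 5 of 9 were lower, 2 were higher and 2 were not called. At day 7 over day 1, 7 of 9 were lower and 1 was higher. One of the intestinal markers, *mtl-2*, is also in the list of DAF-16 targets. The 5 body muscle markers were all lower at day 7, and their sum was 17809 to 20879 CPM at day 1, 3691 to 4005 CPM at day 3 and 1368 to 1492 CPM at day 7. The 5 hypodermis markers were likewise all lower, with 3365 to 4184 CPM at day 1 and 96.4 to 107 CPM at day 7, when *dpy-7* and *grd-10* had at most 3 counts in each sample. The 10 germline markers were all higher at day 7, although low, at 50.3 to 65.1 CPM at day 1 and 406 to 409 CPM at day 7. Of 6 neuronal markers, 3 were higher and none lower at day 7. Their part in the courses of the *dod* genes was not tested.

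The *glp-4* animals of day 1 were also compared with WT animals of day 1. On day 1, 8 of the 10 *dod* genes were higher in *glp-4* than in WT animals, and *dod-18* and *dod-23* were lower. The increases were largest for *dod-21*, *dod-24* and *dod-19*. In this comparison 85.4% of 15610 tested genes were called, 45.5% as higher and 40% as lower, so a call by itself sets few genes apart. The median log2 fold change of the members was 2.50, beside 0.28 for all genes (0.63 with upper-quartile factors and -0.041 with library totals). Genotype at *glp-4* and *eri-1* differs between these groups, and food may differ. Larval temperature differs too by the study's methods, though not by the labels. These cannot be told apart.

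*dod-21* had 168 and 110.4 CPM in *glp-4* samples, against 0.645, 1.35 and 0 CPM in WT samples. Both *glp-4* samples were above 100 CPM and all WT samples below 2 CPM. The fitted log2 fold change was 7.84 (SE 0.35, edgeR adjusted p = 6.1e-13), and it moved to 7.14 without WT replicate 3 and to 8.85 without WT replicate 2. For *dod-24* the samples held 381 and 289.6 CPM in *glp-4* animals and 13.4, 17.2 and 11.5 CPM in WT animals, a 24.04-fold difference (log2 fold change 4.59, SE 0.15, edgeR adjusted p = 1.4e-14). *dod-19* had 1639 and 1631 CPM in *glp-4* samples and 129.6, 122 and 123 CPM in WT samples, with almost no spread within either group (log2 fold change 3.71, SE 0.14, edgeR adjusted p = 6.0e-14).

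The other CUB-like genes were higher by less. *dod-17* had 109 and 113 CPM in *glp-4* samples and 12.1, 12.2 and 10.3 CPM in WT samples (log2 fold change 3.27, SE 0.14, edgeR adjusted p = 3.4e-13), and *dod-22* had 51.5 and 65.6 CPM in *glp-4* samples and 13.0, 13.8 and 11.5 CPM in WT samples (log2 fold change 2.20, SE 0.14, edgeR adjusted p = 6.4e-11). Neither gene's groups overlapped. The raised class also stood higher: *dod-3* by 2.61 (SE 0.25) and *dod-6* by 2.18 (SE 0.10) on the log2 scale (edgeR adjusted p = 1.9e-08 and 1.7e-12). *dod-20* was higher by 2.38 (SE 0.62, edgeR adjusted p = 0.00169), from 11 and 22 counts in *glp-4* samples and 8, 2 and 9 counts in WT samples.

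*dod-23* was lower, with 12.34 and 21.97 CPM in *glp-4* samples and 62.6, 62.4 and 65.8 CPM in WT samples (log2 fold change -1.87, SE 0.17, edgeR adjusted p = 9.2e-09). *dod-18* had 3.38 and 4.04 CPM in *glp-4* samples and 16.3, 15.8 and 15.3 CPM in WT samples (log2 fold change -2.08, SE 0.22, edgeR adjusted p = 7.1e-08). The samples of the 2 groups were apart for both genes. The annotation places *dod-18* wholly within *C54G4.7* on the other strand, with 304 bases of shared exons, and the library kit does not mark strand, so reads there cannot be assigned to either gene by strand. *C54G4.7* differed by 0.36 between *glp-4* and WT animals. Of the intestinal markers, 9 of 9 were higher in *glp-4* animals, and of the germline markers 10 of 10 were lower, and 19 of 20 intestinal immune genes were higher, with a median of 2.08. Their sums were 14949 to 16047 CPM in *glp-4* samples, against 1544 to 1711 CPM in WT samples, for the intestinal markers. The body muscle markers, 5 of 5 higher, summed to 17809 to 20879 CPM in *glp-4* samples, against 4273 to 4489.7 CPM in WT samples. Of the hypodermis markers, 4 of 5 were higher and 1 was lower. Among the higher ones, *rol-6* averaged 118 CPM in *glp-4* samples and 0.073 CPM in WT samples, and *dpy-7* 27.1 and 0.57 CPM. The part of these in the differences of the *dod* genes was not tested. Whether both groups had reached the same stage of development on day 1 was not tested either.

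The log2 fold changes of the comparisons can be set side by side. Since *daf-2* and *glp-4* animals are compared with the same WT samples, and day 1 *glp-4* samples enter 3 comparisons, these values are not independent. *dod-3* and *dod-6* were higher in *daf-2* animals (3.58 and 1.22), at day 7 over day 1 (1.93 and 2.71) and in *glp-4* over WT animals (2.61 and 2.18). The CUB-like genes *dod-17*, *dod-22* and *dod-24* were lower in *daf-2* animals (-1.92, -3.52 and -2.98) and at day 7 over day 1 (-5.34, -4.92 and -1.27), and higher in *glp-4* over WT animals (3.27, 2.20 and 4.59). *dod-23*, also named for going down, had another set of signs, with -2.47 in *daf-2* over WT animals, 3.39 at day 7 over day 1 and -1.87 in *glp-4* over WT animals.

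Across the 5 groups, the place of the highest mean CPM differed by gene. For *dod-3*, *dod-6*, *dod-19*, *dod-23* and *dod-24* it was *glp-4* day 3, for *dod-17*, *dod-20*, *dod-21* and *dod-22* it was *glp-4* day 1, and for *dod-18* it was WT. The lowest mean was that of *daf-2* animals for *dod-19*, *dod-20*, *dod-21*, *dod-22*, *dod-23* and *dod-24*, of WT animals for *dod-3* and *dod-6*, of *glp-4* day 7 for *dod-17* and of *glp-4* day 3 for *dod-18*. The highest mean was 860-fold above the lowest for *dod-21*, where the *daf-2* samples held only 4, 1 and 5 counts, 288-fold for *dod-24* and 6.59-fold for *dod-18*. With *dod-3*, *dod-6*, *dod-19*, *dod-22*, *dod-23* and *dod-24*, no groups next to each other in this order overlapped. The order was set by the means of the same samples, and the share of all genes without such overlap was not computed. *dod-17* had overlapping samples between *glp-4* day 3 and WT, and between *daf-2* and *glp-4* day 7. For *dod-21* the samples of *glp-4* day 7, WT and *daf-2* overlapped, each with the next, and for *dod-18* those of *daf-2* and WT, and of *glp-4* day 3 and day 7. *dod-20* had overlapping samples between *glp-4* day 1 and day 3, between *glp-4* day 7 and WT, and between WT and *daf-2*.

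The members are not spread evenly over the genome. In WBcel235 (Ensembl annotation), *dod-21* (WBGene00007873, 12936738 to 12937988, plus strand), *dod-24* (WBGene00007875, 12940106 to 12941354, minus strand), *dod-22* (WBGene00010125, 12965374 to 12967392, plus strand) and *dod-17* (WBGene00010745, 12976303 to 12978343, plus strand) lie within 41606 bases of chromosome IV. All 4 are protein-coding, with 3 exons in *dod-21* and *dod-24*, 7 or 8 in *dod-22* and 8 in *dod-17*. Between them lie 9 other protein-coding genes of the tables, and a gap of 2117 bases separates *dod-21* from *dod-24*, which are transcribed in opposite directions. On chromosome V, *dod-19* (WBGene00022644, 411782 to 414759, minus strand, 3 transcripts) and *dod-20* (WBGene00015259, 422433 to 424177, plus strand) are 7673 bases apart, with *irg-8* and *Y39D8A.1* between them. *dod-3* lies elsewhere on V (WBGene00016052, 2730622 to 2731098, minus strand), and *dod-6* on III (WBGene00011869, 10197716 to 10198352, plus strand), *dod-18* on I (WBGene00008316, 8019578 to 8020901, minus strand) and *dod-23* on II (WBGene00009898, 8398161 to 8399164, minus strand) have no member near them.

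Genes between the members of chromosome IV were partly alike and partly not. *F55G11.2*, 52 bases from *dod-22* on the other strand, was lower in *daf-2* animals (log2 fold change -2.99, SE 0.38, edgeR adjusted p = 8.6e-05) and at day 7 over day 1 (-3.98), and higher in *glp-4* than in WT animals (4.83). *F55G11.8* was lower by less in *daf-2* animals (log2 fold change -0.57, SE 0.12, edgeR adjusted p = 0.00221), with -3.33 at day 7 over day 1 and 3.00 in *glp-4* over WT animals. Next to *dod-17*, *F55G11.4* was not called in *daf-2* over WT animals (log2 fold change 0.00, edgeR adjusted p = 0.997) and was higher at day 7 over day 1 (2.85), where *dod-17* was lower. Both were lower at day 7 over day 3 (-1.16 for *F55G11.4* and -2.04 for *dod-17*) and higher in *glp-4* over WT animals (5.67 and 3.27). Of the 9 genes between the members, 3 were tested in *daf-2* over WT animals, of which 2 were lower, and 6 were tested at day 7 over day 1, of which 2 were higher and 2 lower. The tables hold estimated counts, in which reads that fit several similar genes are shared out by an estimate, so values of genes with similar sequences are uncertain. How similar the members' sequences are was not analysed here. No member had exactly the counts of another gene.

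**Figure D4:**
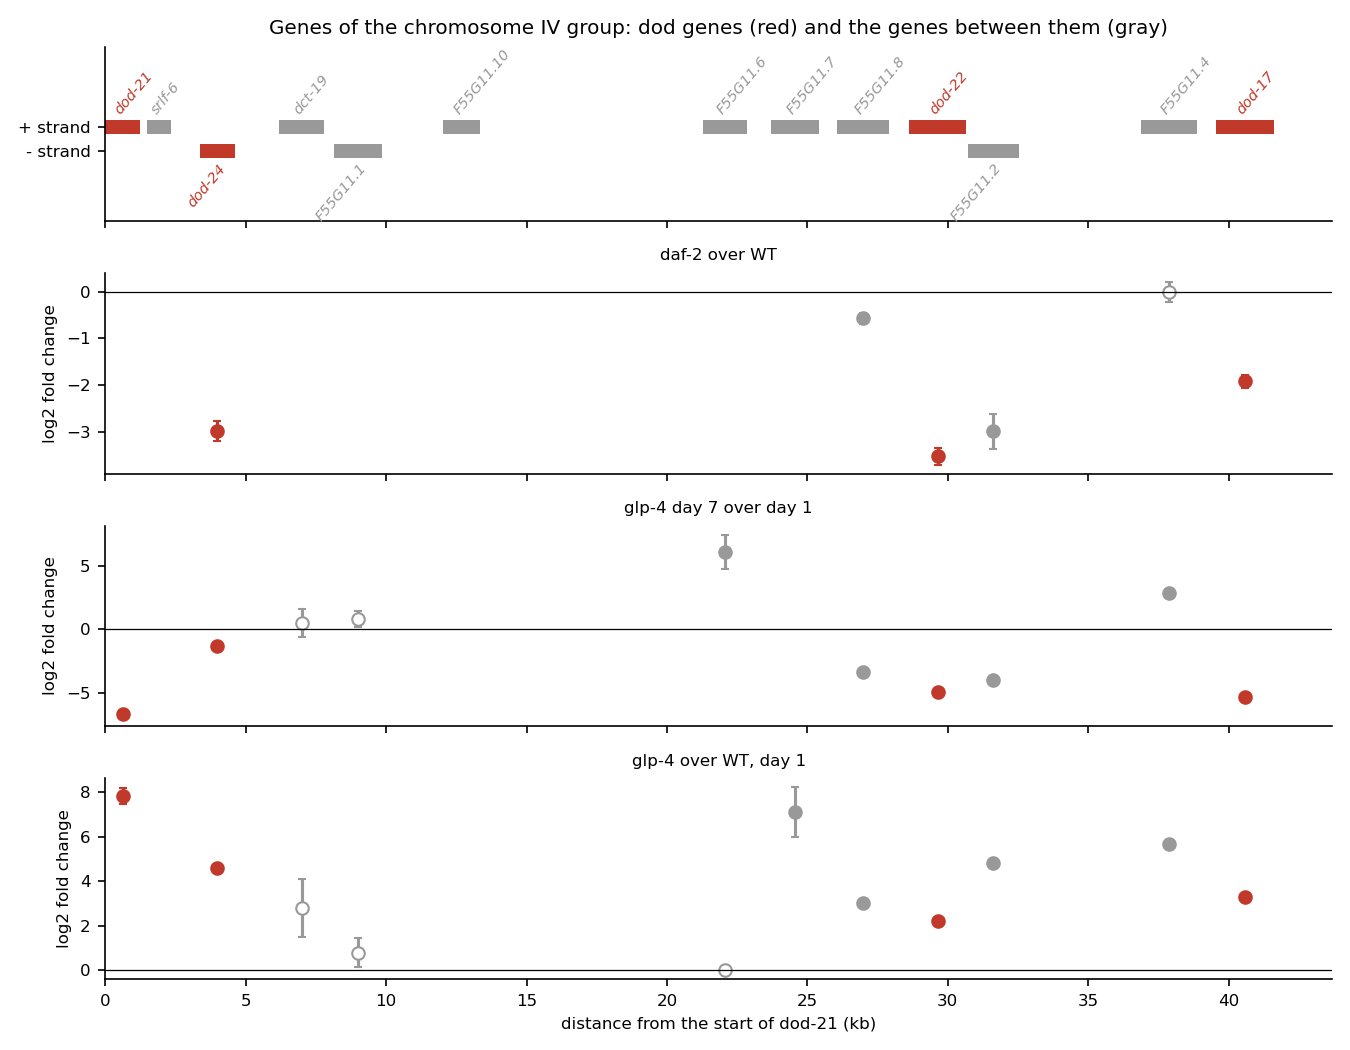
The stretch of chromosome IV that holds 4 *dod* genes, as distance in kilobases from the start of *dod-21*, with genes on the plus strand above those on the minus strand and the log2 fold change (error bars: SE) of each tested gene in 3 comparisons; filled points passed the test and open points did not. All 4 *dod* genes (red) are below 0 at day 7 over day 1 and above 0 in *glp-4* over WT animals, while *F55G11.4* (gray, beside *dod-17*) is at 0.00 in *daf-2* over WT animals, 2.85 at day 7 over day 1 and 5.67 in *glp-4* over WT animals.

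On chromosome V, the genes between *dod-19* and *dod-20* had the direction of *dod-19* in some comparisons and not in others. *irg-8*, named as an infection response gene, was lower in *daf-2* animals (log2 fold change -2.33, SE 0.16, edgeR adjusted p = 1.3e-06) and at day 7 over day 1 (-3.24). *Y39D8A.1* was lower in both comparisons as well (-2.16 and -3.21). In the same comparisons *dod-19* had -0.80 and, without a call, 0.18. At day 3 over day 1, *irg-8* (-0.91) and *Y39D8A.1* (-1.54) were lower and *dod-19* (0.96) was higher. At day 7 over day 3, *irg-8* (-2.33), *Y39D8A.1* (-1.67) and *dod-19* (-0.78) were all lower, and in *glp-4* over WT animals all of them were higher (2.42, 0.47 and 3.71). Beside *dod-23*, the peroxidase gene *skpo-1* had -0.76 in *daf-2* over WT animals, 2.82 at day 3 over day 1 and -2.28 in *glp-4* over WT animals, while *dod-23* had -2.47, 4.46 and -1.87. The gene next to *dod-6* on its right, *T20G5.8*, was not called in *daf-2* animals (-0.057, edgeR adjusted p = 0.789) but was higher at day 3 over day 1 (2.39).

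Likeness between genes was described by Pearson's r of log2 CPM over the 12 samples, among 15610 genes. These samples share their groups, so r follows the group means and is given without a test. Of the 45 pairs of members, 9 had an r above 0.8 and 13 an r below 0. The closest pair was *dod-19* and *dod-24* (0.97), which lie on different chromosomes. It was followed by *dod-17* and *dod-22* (0.90), which lie 8910 bases apart with *F55G11.2* and *F55G11.4* between them. *dod-3* and *dod-6* had an r of 0.86. *dod-18* had a negative r with each of the other 9, lowest with *dod-19* (-0.98). Of pairs close together on a chromosome, *dod-21* and *dod-24* reached 0.86 and *dod-19* and *dod-20* 0.83. Pairs on different chromosomes were as high, with 0.87 for *dod-20* and *dod-24* and 0.85 for *dod-20* and *dod-21* and for *dod-6* and *dod-19*. Within the chromosome IV group, r was lower for *dod-17* with *dod-24* (0.53) and with *dod-21* (0.76), and for *dod-22* with *dod-24* (0.70). The share of all gene pairs above 0.8 was not computed.

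The genes most like each member, of all those measured, included no *dod* gene among the 3 closest. For *dod-3* they were *F15B9.6* (0.988), the ferritin gene *ftn-1* (0.985) and the F-box gene *fbxa-163* (0.985). *ftn-1* averaged 30.3 CPM in *daf-2* samples, 11.2, 122 and 58.6 CPM in *glp-4* samples of day 1, day 3 and day 7, and 1.04 CPM in WT samples. For *dod-6* they were *C18B2.4* (0.996), *C27H5.2* (0.995) and *F53B1.8* (0.993). For *dod-23* they were *nspc-10* (0.966), *pqn-88* (0.962) and the chitinase-like gene *chil-12* (0.960).

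*dod-17* was closest to *vha-2* (0.990) and *vha-3* (0.979), which encode like subunits of the vacuolar proton pump and may share reads, and to *fdgt-1* (0.981). *vha-2* averaged 377 CPM in *daf-2* samples and 562 CPM in WT samples, a narrower range than that of *dod-17*. *dod-22* was closest to *bas-1* (0.980), an aromatic amino acid decarboxylase gene, *grsp-4* (0.977) and *C11E4.7* (0.976). For *dod-21* they were the protein disulfide isomerase gene *pdi-6* (0.974), *R10H10.3* (0.973) and the progranulin gene *pgrn-1* (0.972). For *dod-24* they were *F53C11.1* (0.991), *C29F3.7* (0.990) and *mans-2* (0.989).

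*dod-19* was closest to *K07C11.7* (0.997), the fatty acid synthase gene *fasn-1* (0.996) and the kinase gene *mlk-1* (0.996), and 2579 genes had an r above 0.9 with it, so that such likeness was common. With *dod-18* it was more common still, at 3652 genes, led by *nprl-2* (0.995), *T16G12.6* (0.994) and the cap-binding protein gene *ncbp-1* (0.994). At the other end, 74 genes had an r above 0.9 with *dod-23* and 77 with *dod-22*. For *dod-20*, at few counts, the closest were *kin-36* (0.986), *K04G2.9* (0.969) and *papl-1* (0.968).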

How the data were processed

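Per the submitters' processing notes, reads were handled with kallisto and edgeR on WBcel235 (ce11), within the Cactus pipeline of the study's methods; DiffBind is also named. Gene-level estimated counts, which the authors had rounded but not normalized, and TPM values were deposited as separate tables, made from single-end reads of 50 bases without strand marking. Both were mapped to the samples by title. The members and gene lists were chosen with earlier results of these data known.

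Scarce genes were removed by filterByExpr (counts of at least 10, total of at least 15), TMM factors were computed and changes were tested with edgeR 4.0.16 (glmQLFit and glmQLFTest, R 4.3.3) with p-values adjusted over all tested genes by the Benjamini-Hochberg procedure. The *daf-2* and WT samples, the 6 *glp-4* samples and, for *glp-4* against WT, all 12 samples were fitted. All 10 members are named by rule, with the 3 genes most like each (Pearson's r of log2 CPM, prior count 2) and their neighbors. Alternatives were other scalings, no filter, an adjusted p of 0.01, the replicate block, other sample sets, DESeq2 1.42.0, limma 3.58.1 on TPM (log2 scale, pseudocount 1 or 0.1; mean TPM at least 1, or unfiltered), and each sample left out. The main edgeR fits were also run on counts simulated from their own fitted levels and spread, with known changes added. Such counts follow the model by design, so they cannot show whether it holds for these data, and the alternatives were not run on them. Samples of a group differed by more than counting noise (chi-square of 2.25 to 18.8 per degree of freedom), so no samples were merged as repeats of a library, which does not show that they are separate cultures. Depth ranged from 4538353 to 22484551 counts. Positions came from Ensembl's annotation of WBcel235. Promoter and protein sequences, also part of the naming rule, were not analysed here.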

Additional observations from a re-analysis of the deposited data

How the results depend on the processing

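Of 690 recomputed log2 fold changes of the members, 643 kept their direction and side of the threshold, 27 lost the call, 5 gained it and 15 changed sign, none of these after a call. At day 7 over day 3, 9 members were called, all lower, but 5 under limma on log2(TPM + 0.1) and 5 under limma on log2(TPM + 1) without filter, where *dod-3*, *dod-6* and *dod-23* were among the lost calls. With each sample left out, the number called was 7 to 8 for *daf-2* over WT animals, 8 at day 3 over day 1, 7 to 8 at day 7 over day 1, 8 at day 7 over day 3 and 10 for *glp-4* over WT animals.

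Signs turned for *dod-18* and *dod-20*. For *dod-18* in *daf-2* over WT animals, the log2 fold change was 0.075 with library totals and 0.049 under each limma setting (-0.23 to 0.11 with samples left out, the highest without *daf-2* replicate 1). At day 7 over day 1 it was 0.14 with library totals, 0.040 under limma on log2(TPM + 1) with or without the filter and 0.045 on log2(TPM + 0.1), and at day 7 over day 3 it was -0.10 to 0.46 with samples left out. For *dod-20* at day 3 over day 1 it was 0.058 with upper-quartile factors, 0.0077 with library totals and 0.052 under limma without filter (-0.38 to 0.42 with samples left out). The cause was not tested.

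*dod-19* was called higher at day 7 over day 1 with upper-quartile factors (0.38), library totals (0.71) and limma (0.66). On log2(TPM + 1), which understates changes of low genes, *dod-21* had 6.13 in *glp-4* over WT animals and -5.46 at day 7 over day 1, and *dod-22* had -3.92 at day 7 over day 1.

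Samples with the same replicate number did not deviate together, with correlations from -0.11 to 0.024, so the numbers are not taken as pairs, and not every *daf-2* and WT sample correlated best with its own number. The replicate block left 8 members lower at day 7 over day 3, without *dod-20* (log2 fold change -1.95, edgeR adjusted p = 0.0602), and changed no other member's call. Over all genes it called 3250 higher and 2834 lower in *daf-2* over WT animals, against 3453 and 3042 without it. Low counts limit *dod-20* and *dod-21* in *daf-2* and WT animals, although these libraries are the deepest. At day 7 low counts limit *dod-17*, *dod-18*, *dod-20*, *dod-21* and *dod-22*.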
